A study of Mus musculus with 9 samples.

Results

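The genes described here encode the mouse MHC class I molecule and the machinery that loads it with peptide: the heavy chains H2-K1 and H2-D1, the light chain B2m, the peptide transporter subunits Tap1 and Tap2, the loading chaperone Tapbp, and Nlrc5, the transcriptional activator of class I genes. They were taken by symbol from the platform annotation of the array. Of these 7 genes, 6 had a probe with a symbol of their own among 17498 genes measured, and Nlrc5 had 0 and was not analysed here. Mouse CD8+ T cells had been cultured for 4 days with IL-2, with IL-15 or with IL-21, each at 10 ng/ml, or without cytokine, and all groups were then restimulated for 4 h with no cytokine present. RNA of each cytokine culture was set against RNA of untreated CD8+ T cells on the same 2-colour array, with 3 biological replicates per cytokine and 9 arrays in all. The labels name neither the mouse strain, nor the animals behind the replicates, nor the agent used for restimulation, so p-values measure the spread between these samples.

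Class I molecules display peptides of the cell's own proteins to CD8+ T cells. The proteasome cuts the proteins, TAP1 and TAP2 pump the peptides into the endoplasmic reticulum, tapasin (the product of Tapbp) holds the empty heavy chain and β2-microglobulin next to the transporter, and the filled complex moves to the surface. Interferons raise this pathway in many cell types, with IRF1 and NLRC5 among the factors that act on its promoters, and the genes of the pathway are commonly counted among the interferon-stimulated genes. The question asked of the arrays was whether the class I genes followed the interferon-stimulated genes in the cytokine cultures.

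Each value below is a log2 ratio of cytokine-treated over untreated cells, averaged over the probes of a gene, so 0 means no difference from untreated cells and 1 a doubling. Ratios carry no level, so the CD8+ label could not be checked against absolute marker levels, and fewer cells of a type cannot be told apart from less RNA per cell. That cytokine is the upper channel was assumed and is not settled. The labels put the cytokine sample in Cy5 on all arrays, whereas the series design text and a deposited dye list state that the dyes were exchanged in replicates 2 and 3. Array medians lay between -0.05 and 0.13. IL-2 replicate 3 stood apart, with 13.6% of probes beyond 1 in either direction, against 4.1% to 6.5% on the other arrays. Several of the values that rest on it are also given without it.

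Of the 6 measured genes, 5 lie on chromosome 17 of the GRCm38.p6 build, Tapbp at chr17:33919478-33929290, H2-K1 at chr17:33996012-34000619, Tap1 at chr17:34187556-34197225, Tap2 at chr17:34204479-34216321 and H2-D1 at chr17:35263094-35267497. B2m lies on chromosome 2, at chr2:122147687-122153082. Promoter windows from RefSeq for that build, from 250 bases before to 50 bases after the annotated start, were found for 5 of these 6 genes, Tap2 being the exception. The windows below are shown because H2-K1 and B2m stayed close to each other on the arrays, Tap1 did not stay close to them, and Isg15 stands for the interferon-stimulated genes. For H2-K1, which has 2 windows with starts close together, the first is shown. They read 5′ to 3′ on the strand of the gene, which is the minus strand for H2-K1 (chr17:34000298-34000597) and Isg15 (chr4:156200769-156201068) and the plus strand for B2m (chr2:122147437-122147736) and Tap1 (chr17:34187306-34187605). Capitals mark matches on either strand to the interferon-stimulated response element (ISRE), written as a pair of GAAA runs with any 2 bases between them, to AANNGAAA, the shorter core bound by interferon regulatory factors (IRF), and to TTCNNNGAA, the STAT-binding GAS letters.
H2-K1: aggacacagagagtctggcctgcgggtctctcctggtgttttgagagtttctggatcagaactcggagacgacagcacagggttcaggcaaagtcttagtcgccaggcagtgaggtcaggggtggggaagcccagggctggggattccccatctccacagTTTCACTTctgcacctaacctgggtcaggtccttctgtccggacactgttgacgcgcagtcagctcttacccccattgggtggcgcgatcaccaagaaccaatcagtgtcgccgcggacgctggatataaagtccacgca
B2m: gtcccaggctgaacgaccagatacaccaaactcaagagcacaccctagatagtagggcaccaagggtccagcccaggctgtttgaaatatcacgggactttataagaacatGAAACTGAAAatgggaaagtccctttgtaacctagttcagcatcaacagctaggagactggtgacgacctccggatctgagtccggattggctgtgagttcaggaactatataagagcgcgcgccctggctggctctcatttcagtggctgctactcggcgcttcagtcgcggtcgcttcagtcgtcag
Tap1: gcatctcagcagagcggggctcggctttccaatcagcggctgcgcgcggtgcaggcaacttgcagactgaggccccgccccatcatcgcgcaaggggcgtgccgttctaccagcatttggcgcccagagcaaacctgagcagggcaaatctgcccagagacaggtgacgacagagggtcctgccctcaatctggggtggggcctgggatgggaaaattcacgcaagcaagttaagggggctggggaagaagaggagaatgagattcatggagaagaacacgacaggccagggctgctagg
Isg15: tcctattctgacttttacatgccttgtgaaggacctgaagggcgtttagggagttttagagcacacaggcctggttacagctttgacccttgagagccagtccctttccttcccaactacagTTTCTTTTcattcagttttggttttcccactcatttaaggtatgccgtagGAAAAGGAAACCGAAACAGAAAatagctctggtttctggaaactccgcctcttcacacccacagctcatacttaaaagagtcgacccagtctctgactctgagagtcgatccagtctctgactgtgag

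The B2m window held 1 ISRE match, 139 to 130 bases before the start, and the Isg15 window held 3 that overlap each other. Every ISRE match contains an IRF core match. The windows of H2-K1 and H2-D1 held no ISRE match and 1 IRF core match each, TTTCACTT, at -90 to -83 and at -150 to -143. H2-K1, H2-D1 and B2m also held matches to the NF-kB motif, while Tap1 and Tapbp matched none of the 5 motifs searched, which included the cyclic AMP response element TGACGTCA. Of all 32851 promoter windows, 3.44% held the ISRE letters, 23.9% the IRF core, 8.3% GAS, 8.46% the NF-kB motif and 1.79% the cyclic AMP element. These are letter matches in short windows and say nothing of binding. The Tap1 window shares 275 bases with that of Psmb9, an immunoproteasome subunit read from the opposite strand, whose start lies 226 bases away.

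No class I gene passed the test against untreated cells with any cytokine. The limma fit over all genes, with p-values adjusted by the Benjamini-Hochberg method and a threshold of 0.05, called 0 of 6 genes with IL-2, 0 of 6 with IL-15 and 0 of 6 with IL-21. Over all genes it called 0.8% with IL-2, 0.126% with IL-15 and 0% with IL-21, so counts of 0 among 6 genes are near the background. Without IL-2 replicate 3 the calls over all genes with IL-2 were 6 (0.0343%), against 140 with it, and those with IL-15 were 16 (0.0914%), against 22. At an unadjusted p under 0.05, 2 of the 6 were lower with IL-2, where 2.05% of all genes were, 1 was higher with IL-15, where 5.1% were, and 0 stood out with IL-21, where 6.05% of all genes did in either direction. The median log2 change of the 6 genes was -0.12 with IL-2, 0.13 with IL-15 and -0.14 with IL-21, beside 0.05, 0.00 and 0.00 over all genes.

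**Figure D1:**
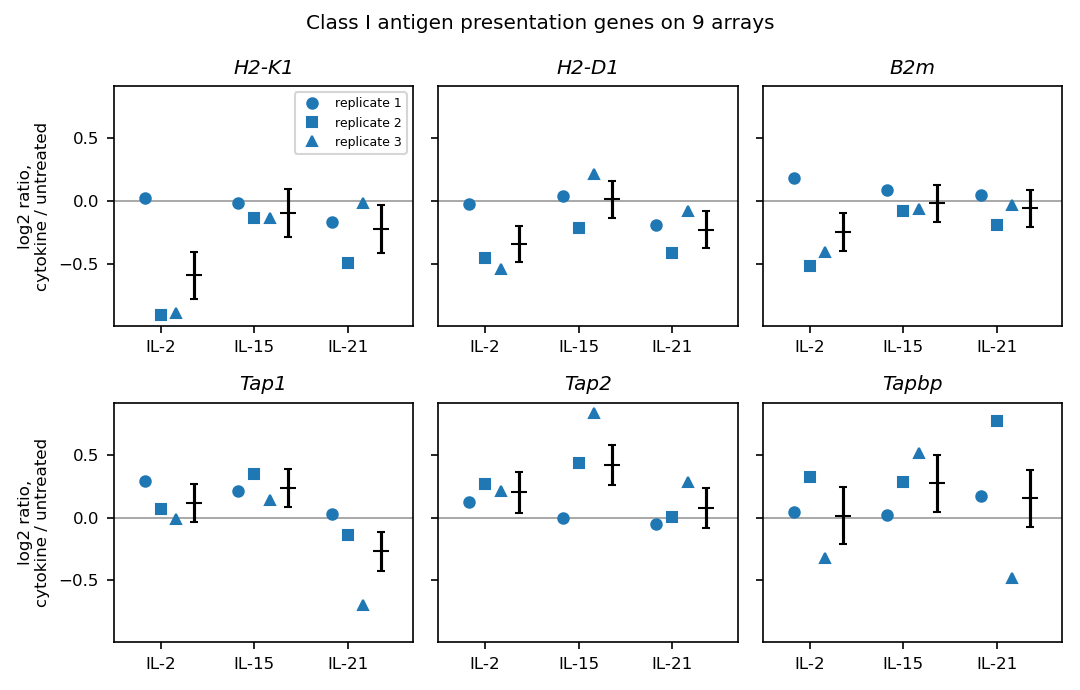
Log2 ratio of cytokine-treated over untreated cells (vertical axis) for the 6 measured class I genes by cytokine of the culture (horizontal axis). Points are the 3 replicates, and the bar beside them is limma's mean with its standard error. With IL-2, H2-K1 stood at -0.91 and -0.89 in replicates 2 and 3 but at 0.02 in replicate 1, and with IL-15 all 3 values lay between -0.14 and -0.01.

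H2-K1 encodes the K heavy chain, one of the classical class I molecules. With IL-2 its log2 ratios were 0.02, -0.91 and -0.89 in replicates 1, 2 and 3, with IL-15 they were -0.01, -0.14 and -0.13, and with IL-21 they were -0.17, -0.49 and -0.01. Replicates 2 and 3 of IL-2 were the lowest of the 9 arrays, and replicate 1 of IL-2 was the highest. The mean with IL-2 was -0.59 ± 0.19 (limma standard error, 3 arrays), with a 95% confidence interval of -1.02 to -0.16, and did not pass limma's test over all genes (adjusted p = 0.315). With IL-15 the mean was -0.09, with an interval of -0.53 to 0.34. Its 2 probes stood at -0.72 and -1.09 in IL-2 replicate 2 and at -0.95 and -0.83 in IL-2 replicate 3.

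The split of the IL-2 replicates ran along the dye orientation as the series design text and the dye list give it, with replicate 1 alone unexchanged, whereas the labels give all arrays the same dyes. Without replicate 1 of each cytokine the mean of H2-K1 with IL-2 was -0.90, with limma's adjusted p = 0.108. With a term for dye orientation it was -0.53, with adjusted p = 0.208, and without IL-2 replicate 3 it was -0.44, with adjusted p = 0.915. Replicate number blocks gave -0.59 with a smaller standard error of 0.16 and adjusted p = 0.125. That standard error leaves out the spread between replicates, which a mean against untreated cells still holds, so this p is likely too small. Markers of CD8 T cells were also lower in replicates 2 and 3 of IL-2. The median log2 ratio of 10 such markers with IL-2 was 0.30, -0.20 and -0.46 in replicates 1, 2 and 3, and 0 of them were called. With IL-15 that median was 0.20, -0.04 and -0.13, and with IL-21 it was 0.46, -0.11 and -0.33. H2-K1 did not follow the markers with IL-21, where its highest value was in replicate 3. On the same IL-2 arrays the medians were -0.15, -0.11 and 0.43 for 9 B cell markers, -0.23, -0.07 and 0.43 for 11 myeloid and dendritic cell markers, and -0.46, 0.15 and 0.51 for 6 NK cell markers, with 0 called. The part of dye, of the markers and of IL-2 replicate 3 in the values of H2-K1 was not tested.

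H2-D1 encodes the D heavy chain. Its log2 ratios were -0.02, -0.46 and -0.54 with IL-2, 0.04, -0.21 and 0.22 with IL-15, and -0.19, -0.41 and -0.08 with IL-21. The lowest 2 arrays were again IL-2 replicates 2 and 3, although the groups overlapped. The mean with IL-2 was -0.34 ± 0.15, and limma's adjusted p was 0.542. Without IL-2 replicate 3 it was -0.24 (adjusted p = 1). The probes of H2-D1 disagreed on this: one stood at -0.87 and -0.85 in IL-2 replicates 2 and 3, the other at -0.04 and -0.23. Heavy chain genes are near-identical over long stretches, so a probe may bind RNA of a related gene. A further probe that the annotation assigns to both H2-K1 and H2-D1, and that was not used in the fit, stood at 0.00, -0.62 and -0.46 with IL-2, at -0.05, 0.06 and 0.01 with IL-15, and at -0.29, -0.04 and -0.37 with IL-21.

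B2m encodes β2-microglobulin, the light chain that all class I heavy chains need to reach the surface. It was covered by 77 probes of the array. Averaged over them, its log2 ratios were 0.18, -0.52 and -0.40 with IL-2, 0.09, -0.08 and -0.06 with IL-15, and 0.05, -0.19 and -0.03 with IL-21. The probes moved together in IL-2 replicates 2 and 3, where 71 and 70 of 77 were below 0, whereas 9 of 77 were below 0 in IL-2 replicate 1. With IL-15 in replicates 2 and 3, 58 and 60 of 77 probes were below 0, but their medians were only -0.17 and -0.23, against -0.60 and -0.42 for IL-2. The mean of B2m with IL-2 was -0.25 ± 0.15 (adjusted p = 0.759 by limma), and without IL-2 replicate 3 it was -0.17 (adjusted p = 1). With IL-15 the mean was -0.02, with an interval of -0.36 to 0.32, but the median of the probes in place of their mean gave -0.13. The probes share an array and an RNA sample, so they show how well a gene was read on an array and add no replicate.

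**Figure D2:**
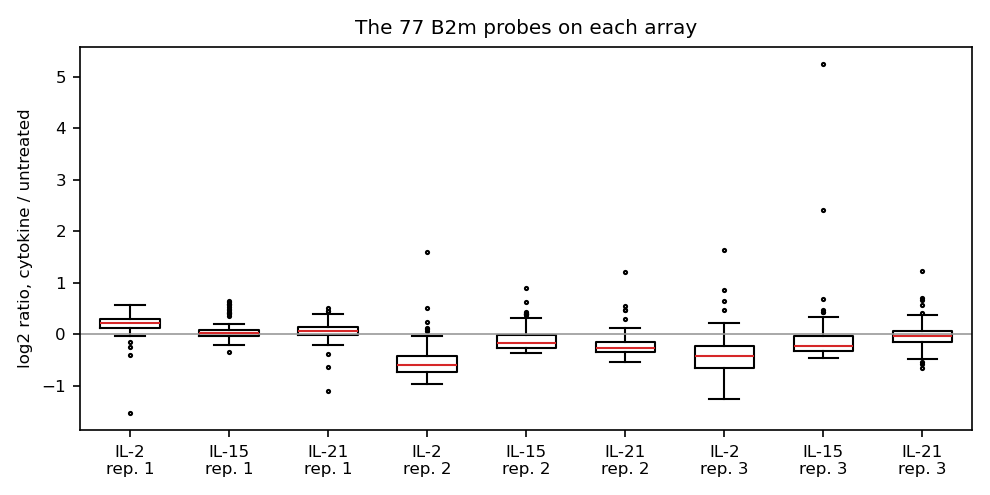
Log2 ratios of the 77 B2m probes (vertical axis) on each of the 9 arrays (horizontal axis). Boxes span the middle 50% of probes with the median as a line, whiskers reach 1.5 times that span and points lie beyond it. The box of IL-2 lies below 0 in replicates 2 and 3 and above it in replicate 1, and a stray probe reached 5.25 in IL-15 replicate 3.

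Tap1 encodes the first subunit of the peptide transporter and is read by 1 probe. Its log2 ratios were 0.30, 0.07 and -0.01 with IL-2, 0.22, 0.35 and 0.14 with IL-15, and 0.03, -0.14 and -0.70 with IL-21. All 3 IL-15 arrays were above all 3 IL-21 arrays, while IL-2 overlapped both. With IL-15 the mean was 0.24 ± 0.15, with an interval of -0.11 to 0.58 and limma's adjusted p = 0.879. Above 0 in all 3 replicates of IL-15 stood 2 of the 6 class I genes, Tap1 and Tapbp, where 15.1% of all genes did.

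Tap2 encodes the partner subunit and had the highest class I value with IL-15. Its log2 ratios were 0.12, 0.27 and 0.21 with IL-2, 0.00, 0.44 and 0.83 with IL-15, and -0.05, 0.00 and 0.28 with IL-21. Replicates 2 and 3 of IL-15 were the highest of the 9 arrays, while replicate 1 of IL-15 was at 0. The mean with IL-15 was 0.42 ± 0.16, with an interval of 0.06 to 0.79, an unadjusted p of 0.0283 and an adjusted p of 0.563 by limma. It was 0.22 without replicate 3 and 0.63 without replicate 1. With IL-2 it was 0.20 ± 0.16, from values that differed little between replicates (SD 0.07).

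Tapbp encodes tapasin, and its replicates scattered widely, with an SD of 0.62 with IL-21. Its log2 ratios were 0.04, 0.32 and -0.32 with IL-2, 0.02, 0.29 and 0.51 with IL-15, and 0.17, 0.77 and -0.48 with IL-21. The 3 groups overlapped, and IL-21 held both the highest and the lowest array. The mean with IL-15 was 0.27 ± 0.23, with an interval of -0.24 to 0.79.

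The cytokines were also set against each other, which uses the same 9 arrays. In the mean differences whatever the arrays of a replicate share cancels, but the standard errors come from the fit without a replicate block and still hold it. Again 0 of 6 class I genes passed limma's test for IL-21 versus IL-2, for IL-21 versus IL-15 and for IL-15 versus IL-2, where 0.08%, 0.0171% and 0% of all genes did. Without IL-2 replicate 3 the calls over all genes were 0 for IL-21 versus IL-2, against 14 with it, and 1 for IL-21 versus IL-15, against 3. At an unadjusted p under 0.05, 1 of the 6 was lower for IL-21 versus IL-15, where 3.61% of all genes were, and 0 of the 6 stood out in the other 2 comparisons, where 5.98% and 1.44% did. The lower gene was Tap1, with differences of -0.19, -0.49 and -0.84 in replicates 1, 2 and 3 and a mean of -0.51 ± 0.22 (unadjusted p = 0.0448, adjusted p = 0.86). With the replicate block its standard error was 0.16 and limma's adjusted p 0.31, and the mean was -0.34 without replicate 3. For IL-15 versus IL-2, H2-K1 differed by -0.03, 0.77 and 0.76, with a mean of 0.50 ± 0.27 and an interval of -0.11 to 1.11. All 6 class I genes had a mean difference above 0 for IL-15 versus IL-2, between 0.12 for Tap1 and 0.50 for H2-K1, but 1 of them, H2-D1, was above 0 in all 3 replicates, where 9.72% of all genes were. Without IL-2 replicate 3 those means lay between 0.05 for Tap1 and 0.35 for H2-K1. For IL-21 versus IL-15 all 6 means were below 0, and 3 of the 6, H2-D1, Tap1 and Tap2, were below 0 in all 3 replicates, where 20.4% of all genes were. The median difference over all genes was -0.04 for IL-15 versus IL-2 and -0.004 for IL-21 versus IL-15. How many of all genes share the sign of the class I means was not counted, so the 6 of 6 have no background here. These comparisons share arrays, so their values are given side by side and are not independent of each other.

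The interferon-stimulated genes stood further from untreated cells in the IL-15 cultures than the class I genes did. Of 40 listed genes 35 were measured, and 6 of the 35 were higher with IL-15 by limma's test, 0 lower and 29 did not pass. The 6 were Isg15, a ubiquitin-like protein, Usp18, which removes it from its targets and damps interferon receptor signalling, the virus restriction factors Bst2 and Ifitm3, the exonuclease Isg20, and Phf11a. Isg15 had log2 ratios of 1.64, 2.86 and 2.33 with IL-15, with a mean of 2.28 ± 0.22 (adjusted p = 0.0206), and Usp18 had a mean of 2.41 ± 0.31 (adjusted p = 0.0395). All 6 calls were lost without replicate 1, without replicate 2 or without replicate 3, with adjusted p between 0.12 and 0.829. In each of those fits 0 of 17498 genes were called with IL-15, so the losses are not particular to these 6. The mean of Isg15 was then 2.60, 1.99 and 2.25, and that of Usp18 was 2.83, 2.13 and 2.27. The call of Phf11a was also lost without IL-2 replicate 3 (adjusted p = 0.0503). The median of the 35 genes was 0.93 with IL-15, 0.32 with IL-2 and 0.14 with IL-21, and of them 1, Ifitm3, was higher with IL-2 and 0 with IL-21. That call of Ifitm3 was lost without replicate 2 (adjusted p = 0.289) and without replicate 3 (adjusted p = 0.276), where 0 of 17498 genes were called with IL-2.

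Set beside that list, each of the 6 class I genes was below the mean of the interferon-stimulated genes on all 3 IL-15 arrays. The list was chosen with earlier results of these data known. Its median change with IL-15 was 0.93, beside 0.00 over all genes, so a place below it is not particular to class I genes. The share of all genes below that mean was not computed. On the IL-15 arrays the median of the class I genes was 0.03, 0.10 and 0.18 in replicates 1, 2 and 3, and that of the interferon-stimulated genes 0.42, 1.54 and 1.09. The change of Tap2 with IL-15 was higher than that of 17.1% of the 35 interferon-stimulated genes, that of Tapbp higher than 5.71%, that of Tap1 higher than 2.86%, and those of H2-K1, H2-D1 and B2m were below them all. This ranking rests on the direction taken for the ratios. With the sign of replicates 2 and 3 turned the median of the interferon-stimulated genes was -0.77, that of the class I genes was -0.04, and Tap2 stood above 28 of the 35, H2-D1, Tap1 and Tapbp above 33 and H2-K1 and B2m above 35. The upper confidence bounds of the 6 class I genes with IL-15 reached from 0.32 for B2m to 0.79 for Tapbp and Tap2, all under the median change of the interferon-stimulated genes. Those bounds do not exclude an increase of each class I gene up to that size.

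**Figure D3:**
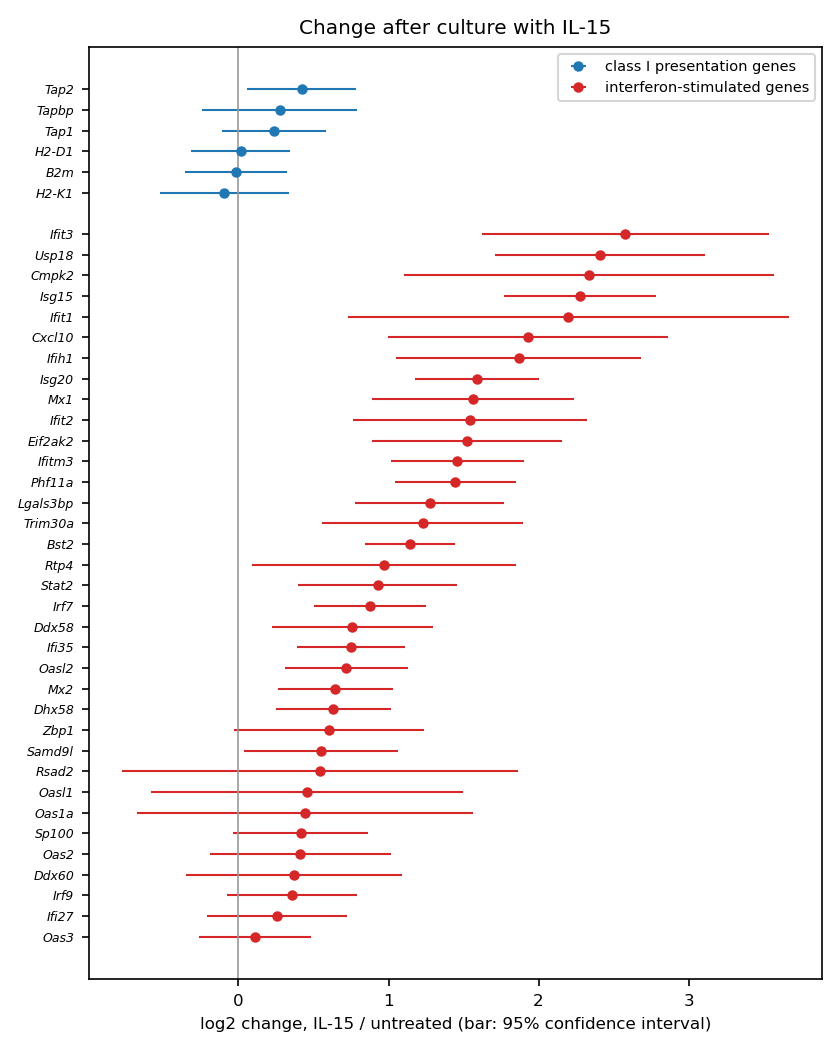
Log2 change with IL-15 over untreated cells (horizontal axis) for the 6 class I genes (upper block) and the 35 interferon-stimulated genes (lower block), each sorted by its value. Points are limma's means over 3 arrays and lines their 95% confidence intervals. The class I genes lie between -0.09 and 0.42, and the interferon-stimulated genes between 0.11 and 2.58.

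**Figure D4:**
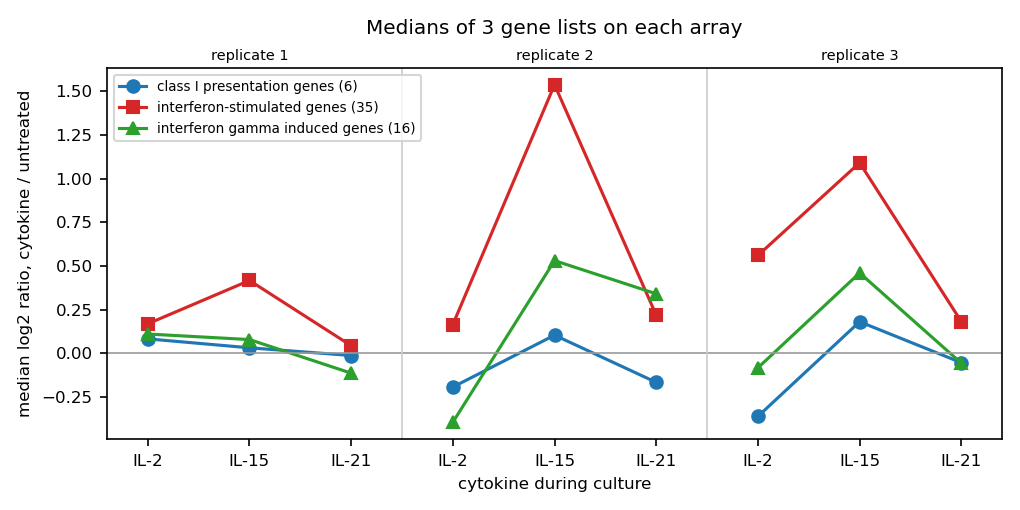
Median log2 ratio over untreated cells (vertical axis) of the class I genes, the interferon-stimulated genes and the interferon gamma induced genes on each array, grouped by replicate (horizontal axis). With IL-15 the interferon-stimulated genes reach 1.54 in replicate 2 and the class I genes 0.10.

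Pearson correlations over the 9 arrays describe which class I genes varied with the interferon-stimulated genes. Arrays of the same replicate number deviated together and may share untreated RNA, which the labels do not state. By the dye list they also share dye orientation. The 9 arrays are thus not independent, and no p is given. With the mean of the interferon-stimulated list, r was 0.67 for Tap2, 0.46 for Tap1, 0.22 for Tapbp, 0.14 for H2-D1, 0.06 for H2-K1 and -0.09 for B2m. Higher values than that of Tap2 were found for 3.03% of all genes, and higher than that of H2-K1 for 48.3%. With the sign of replicates 2 and 3 turned, r was 0.75 for Tap2, 0.69 for Tap1, 0.35 for Tapbp, 0.03 for B2m, -0.15 for H2-D1 and -0.20 for H2-K1. With the mean of each replicate subtracted, which leaves the differences between cytokines, r was 0.78 for Tap1, 0.67 for Tap2, 0.47 for H2-D1, 0.41 for H2-K1, 0.40 for B2m and 0.14 for Tapbp. Higher values than that of Tap1 were then found for 2.73% of all genes. Turning the sign leaves these r as they are, by construction.

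The order was different for genes induced chiefly by interferon gamma, such as the guanylate-binding proteins and the immunity-related GTPases, a list set against the class I genes after the values were seen. With replicate means subtracted, r with the mean of 16 such genes was 0.87 for B2m, 0.80 for H2-K1, 0.64 for H2-D1, 0.44 for Tap2, 0.33 for Tap1 and 0.30 for Tapbp. Over the values as deposited it was 0.53, 0.61, 0.48, 0.36, 0.27 and 0.28 in the same order. Higher values than that of B2m were found for 0.657% of all genes with replicate means subtracted and for 3.67% as deposited. The mean of this list holds Socs1, at 4.45 in IL-15 replicate 2, where the list median was 0.53. These r were not recomputed with a replicate left out. The median of those 16 genes was -0.15 with IL-2, 0.36 with IL-15 and 0.04 with IL-21, and 0 of the 16 passed limma's test in any comparison. On the IL-2 arrays 11, 1 and 8 of the 16 were above 0 in replicates 1, 2 and 3, with medians of 0.11, -0.39 and -0.08, so the list as a whole was low in replicate 2 and near 0 in replicate 3. Gbp2, a guanylate-binding protein, had log2 ratios of 0.69, -1.32 and -1.24 with IL-2, low in the same replicates as H2-K1, and its mean of -0.63 did not pass (adjusted p = 0.716). Without IL-2 replicate 3 it was -0.32 (adjusted p = 1). Irf1, a transcription factor that binds class I promoters and belongs to both this list and the regulators, had -0.12, -1.08 and -0.81 with IL-2, with a mean of -0.67 ± 0.19 and an adjusted p of 0.217, and without IL-2 replicate 3 -0.60 (adjusted p = 0.712). Ifng itself had 1.01, 0.93 and 0.16 with IL-2, with an adjusted p of 0.302.

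Among themselves the class I genes formed no single group. The 2 partners of the K molecule, H2-K1 and B2m, varied most alike, with r = 0.95 over the 9 arrays and 0.97 with replicate means subtracted. H2-K1 and H2-D1 had r = 0.85 and 0.82 in the same 2 forms. H2-K1 and Tap1 had r = 0.04 and -0.10, and Tap1 and Tap2 had 0.09 and 0.68. Tap1 stayed close to Psmb9, with which it shares the stretch between their starts shown above, at r = 0.97 in both forms. Tap2 and Psmb8, another immunoproteasome subunit, had r = -0.04 and 0.47. Outside the 6 genes, those most like their mean were Pus7l (r = 0.96), Mob3a, Gbp7, Psme1 and Ly6e over the values as deposited, and Ly6e (r = 0.99), Gnl2, Spry1, Mob3a and Eml4 with replicate means subtracted.

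**Figure D5:**
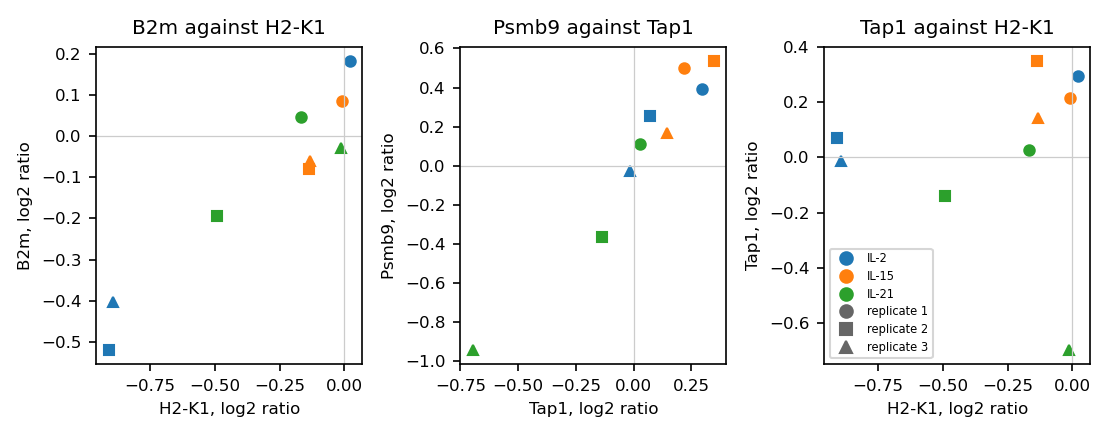
Log2 ratios on the 9 arrays for 3 pairs of genes, each point 1 array, with colour for the cytokine and shape for the replicate. B2m against H2-K1 and Psmb9 against Tap1 lie near a line (r = 0.95 and 0.97), and Tap1 against H2-K1 does not (r = 0.04).

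The rest of the pathway was read from lists chosen with earlier results of these data known. Of 13 immunoproteasome and peptide supply genes, 0 were called in any of the 6 comparisons, with medians of 0.00 for IL-2 and 0.17 for IL-15. Psmb8, a catalytic subunit of the immunoproteasome, was highest among them. Its log2 ratios were 0.55, 0.74 and 0.51 with IL-2 and 0.82, 0.80 and 0.46 with IL-15, with means of 0.60 ± 0.15 (adjusted p = 0.15) and 0.69 ± 0.15 (adjusted p = 0.165). Without IL-2 replicate 3 the mean with IL-2 was 0.64 (adjusted p = 0.478 by limma). With the replicate number as a block Psmb8 passed with each of these cytokines, with adjusted p = 0.0449 for IL-2 and 0.0492 for IL-15, which held for none of the class I genes. Psmb9 had 0.50, 0.53 and 0.17 with IL-15, with a mean of 0.40 ± 0.19 (adjusted p = 0.738), and Psme1, a subunit of the proteasome activator, had 0.60, 0.41 and 0.83, with a mean of 0.61 ± 0.16 (adjusted p = 0.275).

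Of 27 further class I heavy chain genes, 19 were measured and 0 called in any comparison, with medians of -0.07 for IL-2, 0.16 for IL-15 and -0.03 for IL-21. H2-T23, which encodes the nonclassical Qa-1 heavy chain, had log2 ratios of 0.01, -0.82 and -0.87 with IL-2, close to those of H2-K1, and its mean of -0.56 ± 0.19 did not pass (adjusted p = 0.376), nor did that without IL-2 replicate 3 (-0.41, adjusted p = 0.985). H2-T9 and H2-T22, also nonclassical heavy chains, stood higher with IL-15, at 0.81 ± 0.17 (adjusted p = 0.139) and 0.60 ± 0.14 (adjusted p = 0.19), and likewise did not pass. Others in the list stood lower with IL-15, such as Mr1 (-0.51, -1.01 and -0.08) and H2-M1 (-0.33, -0.44 and -0.11). At an unadjusted p under 0.05, 2 of the 19 were higher with IL-15 and 1 lower. Of 9 loading chaperones, 0 were called, with medians of 0.10 for IL-2, 0.13 for IL-15 and 0.08 for IL-21. Tapbpl, the tapasin-related protein, had 0.46, 0.28 and 0.77 with IL-15 (adjusted p = 0.302). Of 15 measured regulators of class I transcription, 0 were called. Rela, an NF-kB subunit, had -0.23, -1.10 and -1.25 with IL-2 (adjusted p = 0.101), low in the same replicates as H2-K1, H2-D1 and B2m. Without IL-2 replicate 3 its mean was -0.67 (adjusted p = 0.544). At an unadjusted p under 0.05, 2 of the 15 were higher with IL-2 and 2 lower. The regulators Nfyb (0.37, 0.12 and 0.48) and Creb1 (0.40, 0.13 and 0.46) stood above 0 with IL-2. Zap70, a CD8 T cell marker, had -0.02, -1.11 and -1.68, so the pattern of Rela is not particular to it. A link of Rela to the class I genes was not tested. Among 10 MHC class II genes, which present peptides to CD4+ T cells, 1 was called. H2-Aa, the alpha chain of a class II molecule, fell with IL-2, with log2 ratios of -0.72, -1.95 and -1.90 and an adjusted p of 0.0472 by limma. That call was lost with quantile normalization (adjusted p = 0.24), with median centring (adjusted p = 0.061) and without replicate 2, replicate 3 or IL-2 replicate 3 (adjusted p = 0.771, 0.543 and 0.324). Over all genes the calls with IL-2 were 0 without replicate 2, 0 without replicate 3 and 6 without IL-2 replicate 3.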

How the data were processed

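Per the labels' protocols, total RNA of mouse CD8+ T cells was amplified, and dyes were attached through amino allyl groups. The deposited table covers 36547 probes on 9 arrays, with 0 missing values. Its deposited values were read as log2 ratios, since they are signed and run from -8.01 to 8.78. If they were natural logs, each change would be too small by a common factor. For scanner, background correction, normalization and log base the answer is the same: not given in the sources used here. The values were used as deposited. Without intensities no filter on dim probes could be set, and precision is limited by the 3 arrays per cytokine.

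Exactly 1 symbol was listed for 26926 probes, several for 203, and 9418 were unnamed in the table used. Probes of a gene were averaged, after 41 viral control probes were left out, which gave 17498 genes. Groups and replicates came from the sample titles.

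Whether the replicates run the same way was read from cytokine differences taken inside each replicate, where a dye effect drops out. Between replicates these correlated at 0.20, 0.15 and 0.11 for IL-21 minus IL-2, at 0.12, 0.14 and 0.17 for IL-21 minus IL-15, and at 0.04, -0.04 and -0.02 for IL-15 minus IL-2. All arrays were therefore taken to run cytokine over untreated. Of 36 array pairs, 3 correlated below -0.3 (lowest -0.35), all of opposite dye orientation. Most pairs of opposite orientation were negative, with a range from -0.35 to 0.06. Arrays of replicate 2 correlated with those of replicate 3, of the same orientation, at -0.03 to 0.24. Within a cytokine, replicates 1 and 3 correlated at -0.26 (IL-2), -0.09 (IL-15) and -0.28 (IL-21). Replicates 1 and 2 gave 0.06, 0.02 and -0.03, and replicates 2 and 3 gave 0.20, 0.17 and 0.23. The direction taken for the ratios thus stayed an assumption.

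The limma package 3.58.1 (R 4.3.3) was fitted to all genes with 1 coefficient per cytokine over 9 arrays and no block or dye term, two-sided, with Benjamini-Hochberg adjustment over all 17498 genes. Same-numbered arrays deviated together from their group means, with correlations of 0.58 to 0.65 for replicate 1, 0.15 to 0.31 for replicate 2 and 0.35 to 0.52 for replicate 3, so the numbers were taken to pair the samples. Alternatives were a replicate block, a dye term, quantile normalization, median centring, the sign of replicates 2 and 3 turned, the median of probes, and each replicate left out. Added after seeing the data were the fit without IL-2 replicate 3, list medians, ranks and likeness with that sign turned, and the likeness to the interferon gamma list. The genes and all lists were chosen with earlier results of these data known. Named genes were all class I members, fixed genes, and up to 4 of each list with the smallest p for IL-15 versus untreated and for IL-21 versus IL-2, of which only some are printed, and the 5 genes most like the class I mean in each form of the values.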

Additional observations from a re-analysis of the deposited data

How the results depend on the processing

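In each of the 6 comparisons, 0 of 6 class I genes were called under every alternative run, the smallest adjusted p being 0.125 with the replicate block, 0.208 with a dye term, 0.399 with quantile normalization, 0.385 with median centring, 0.312 with the median of probes, and 0.108, 1 and 0.637 without replicate 1, 2 and 3. The replicate block turned no class I change and added calls for Psmb8 with IL-2 and IL-15. Against untreated cells that block leaves the spread between replicates out of the standard error, so its calls there are likely too many. Over all genes it called 342 with IL-2, 122 with IL-15 and 23 with IL-21, against 140, 22 and 0 without the block, and 92, 32 and 0 for IL-21 versus IL-2, IL-21 versus IL-15 and IL-15 versus IL-2, against 14, 3 and 0. A dye term called 284, 170, 19, 90, 39 and 0 in the same order of comparisons, quantile normalization 19, 27, 0, 1, 1 and 0. Median centring called 103, 29, 1, 11, 5 and 0, and the median of probes 138, 22, 0, 17, 4 and 0. Without replicate 1 the fit called 69 genes with IL-2 and 0 in every other comparison. Without replicate 2 or without replicate 3 it called 0 genes in any comparison, so 0 of 6 class I genes tells nothing more there. The likeness of class I genes to the interferon-stimulated genes rested on few arrays: with replicate means subtracted, r of H2-K1 was -0.08 without replicate 2 and 0.83 without replicate 3, and r of Tap1 lay between 0.79 and 0.90 without any 1 replicate. Ratios of 3 arrays a group without intensities limit what could be detected.

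Small changes turned sign. B2m with IL-15 was 0.036 with a dye term and 0.013 with quantile normalization, Tapbp with IL-2 was -0.0010 with a dye term and -0.021 with median centring, B2m for IL-21 versus IL-15 was 0.053 with the median of probes, and Tapbp for IL-21 versus IL-2 was -0.030 without IL-2 replicate 3. Leaving out 1 replicate, or IL-2 replicate 3 alone, gave ranges across 0 for Tapbp with IL-2 (-0.14 to 0.18), with IL-21 (-0.15 to 0.47), for IL-21 versus IL-2 (-0.030 to 0.29), for IL-21 versus IL-15 (-0.42 to 0.32) and for IL-15 versus IL-2 (-0.029 to 0.41), for B2m with IL-15 (-0.069 to 0.014) and IL-21 (-0.11 to 0.0094), for H2-D1 with IL-15 (-0.086 to 0.13) and for IL-21 versus IL-2 (-0.062 to 0.25), and for Tap2 with IL-21 (-0.025 to 0.14). The cause was not tested.

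With the sign of replicates 2 and 3 turned, as a dye exchange left in the values would ask, limma called 0 genes in every comparison and most changes turned by construction. With IL-2 the changes were then 0.61 for H2-K1, 0.32 for H2-D1, 0.37 for B2m, -0.12 for Tap2, 0.59 for Irf1, 0.57 for H2-T23, 1.08 for Gbp2, -0.23 for Psmb8, -1.04 for Ifitm3, 1.04 for H2-Aa, 0.71 for Rela and -0.024 for Ifng. With IL-15 they were 0.087 for H2-K1, 0.075 for B2m, -0.093 for Tap1, -0.42 for Tap2, -0.26 for Tapbp, -1.18 for Isg15, -1.36 for Usp18, -0.62 for Irf7, -0.14 for Psmb8, -0.067 for Psmb9, -0.21 for Psme1, -0.33 for H2-T22, -0.59 for H2-T9, -0.46 for Bst2, -0.63 for Ifitm3, -0.78 for Isg20, -0.85 for Phf11a and -0.20 for Tapbpl, and the medians -0.040 for the class I genes and -0.77 for the interferon-stimulated genes. With IL-21 they were 0.11 for H2-K1, 0.10 for H2-D1, 0.090 for B2m, 0.29 for Tap1, -0.11 for Tap2 and -0.039 for Tapbp. For IL-21 versus IL-2 they were -0.50 for H2-K1, -0.22 for H2-D1, -0.28 for B2m, 0.21 for Tap1, 0.0057 for Tap2, -0.052 for Tapbp and 0.42 for Psmb9. For IL-21 versus IL-15 they were 0.025 for H2-K1, 0.088 for H2-D1, 0.015 for B2m, 0.38 for Tap1, 0.31 for Tap2, 0.22 for Tapbp and 0.54 for Psmb9. For IL-15 versus IL-2 they were -0.52 for H2-K1, -0.31 for H2-D1, -0.29 for B2m, -0.17 for Tap1, -0.30 for Tap2, -0.27 for Tapbp, -0.69 for Isg15 and -1.20 for Gbp2.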
